A study of Oryctolagus cuniculus with 6 samples.

Results

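A set of 10 genes of innate antimicrobial defence was followed in the rabbit conjunctiva, and 8 of the 10 had a value. The set joins proteins stored in the granules of neutrophils (CAMP, BPI, MPO, PGLYRP1) with secreted proteins of epithelia and glands (SLPI, WFDC2, DEFB1, LPO) and further peptidoglycan recognition proteins (PGLYRP2, PGLYRP3). A gene was taken from a probe set only where the platform annotation gives that gene as the only symbol; PGLYRP3 and SLPI had no such probe set and were not analysed here. Each of the other 8 had 1 probe set, so no choice between probe sets was needed. In DED, the epithelial peptide DEFB1, the epithelial secretory protein WFDC2 and the granule protein PGLYRP1 were higher than in naive conjunctiva, by 0.67, 0.41 and 0.38 on the log2 scale (3 arrays per group). None of the 8 was called lower, and MPO, BPI, CAMP, LPO and PGLYRP2 did not pass the test.

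The ocular surface is defended by a layered chemistry. Surface epithelium and glands release small cationic peptides and secretory proteins into the tear film all the time, whereas neutrophils carry their antimicrobial proteins ready made and bring them to a site of injury. Much of the granule cargo is transcribed in precursor cells of the bone marrow and stored, so the mRNA and the protein of a granule gene can be found in different places. Peptidoglycan recognition proteins bind the bacterial cell wall, BPI binds lipopolysaccharide, and the peroxidases MPO and LPO turn hydrogen peroxide and halides or thiocyanate into microbicidal oxidants.

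All animals were male Dutch-Belted rabbits of 1.8 to 2 kg whose nictitating membranes had been removed by surgery. In the DED group (dry eye disease), concanavalin A (ConA), a plant lectin that activates T cells, was injected into the periorbital lacrimal glands on days 1, 8 and 14, and the conjunctiva was taken on day 18. For the naive group the labels describe no injection, so vehicle or needle effects cannot be told apart from those of ConA. Samples of 4 x 4 mm held the full thickness of the conjunctiva with Tenon's capsule, and RNA of several animals was pooled for each array (3 animals, or 6 eyes, per pool by the sample records, fewer by the methods of the study), with 3 arrays in each group.

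Values are deposited array values on the log2 scale, 1 unit being a doubling, and differences are DED minus naive from limma, with p-values adjusted by Benjamini-Hochberg across the 23364 probe sets of the array. At an adjusted p under 0.05, 1030 probe sets (4.41%) were higher and 629 (2.69%) lower in DED, and the median difference over all probe sets was -0.01. Arrays correlated at 0.994 to 0.995 within groups and at 0.988 to 0.990 between groups, and no array stood apart. The p-values measure the spread between pools, not between animals. Because the tissue is a mixture, fewer cells of a type and less RNA per cell cannot be told apart. The values hold no detection call, and the number of arrays limits the precision.

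Of the 8 genes, 3 were higher in DED, 0 were lower and 5 were neither, beside 4.41% higher and 2.69% lower among all probe sets. Without naive replicate 2 the count of 3 fell to 1 (DEFB1), and leaving out any array lowered the counts over all probe sets to between 558 and 684 higher and between 264 and 344 lower. The median difference of the 8 genes was 0.12, against -0.01 over all probe sets, and 6 of the 8 differences were above 0, as were 46.1% of those over all probe sets. In 3 of the 8, every DED array lay above every naive array, which held for 13.4% of all probe sets. In 0 of the 8 did every DED array lie below, which held for 14.5%.

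**Figure D1:**
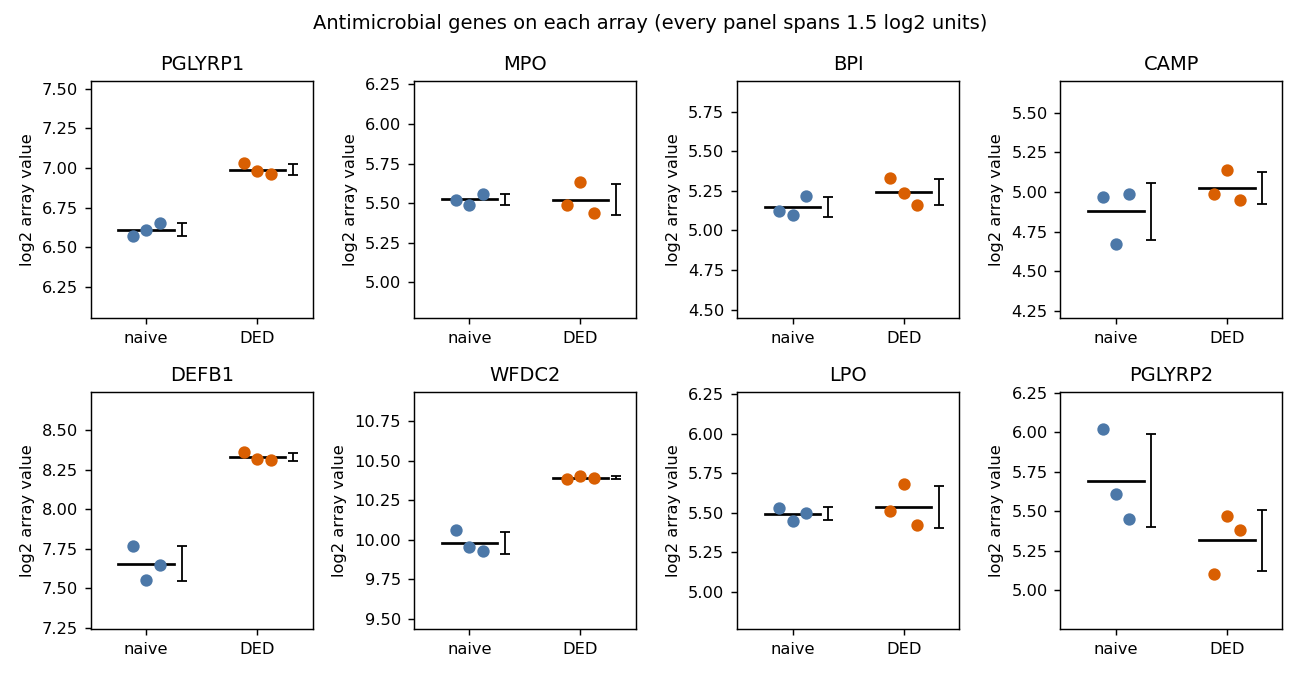
Log2 array value (y axis, every panel spanning the same number of log2 units) of each gene on the 3 naive and 3 DED arrays. Points are arrays, the horizontal line is the group mean and the bar beside it is the SD. The groups separate for DEFB1, WFDC2 and PGLYRP1 and overlap for the other 5 genes.

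Among the epithelial genes, DEFB1 showed the largest difference of the 8. It encodes beta-defensin 1, a cationic peptide that many epithelia make without prior stimulation. Its array values were 7.77, 7.55 and 7.65 in naive conjunctiva and 8.36, 8.32 and 8.31 in DED. The DED arrays lay within 0.05 of each other, and the lowest of them was 0.54 above the highest naive array. The means were 7.66 ± 0.11 and 8.33 ± 0.026 (SD, n = 3 arrays each), a difference of 0.67 (standard error 0.072, 95% interval 0.50 to 0.85), or 1.59-fold, with an adjusted p of 0.00355 by limma. An exact permutation test of this single value gave p = 0.1 (two-sided), the smallest that 3 against 3 arrays can give.

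WFDC2, a secreted protein with a pair of whey acidic protein (WAP) domains that is made by glandular and airway epithelia, followed. Its array values were 10.06, 9.95 and 9.93 in naive conjunctiva and 10.38, 10.40 and 10.39 in DED. The groups did not overlap, with a gap of 0.32 between them. The difference was 0.41 (standard error 0.060, 95% interval 0.27 to 0.55), or 1.33-fold, from 9.98 ± 0.070 to 10.39 ± 0.010 (SD, n = 3 arrays each; limma, adjusted p = 0.0111). Without naive replicate 2 the difference was 0.40 and its adjusted p was 0.0508, above the threshold.

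LPO, the lactoperoxidase of tears, saliva and milk, had array values of 5.53, 5.45 and 5.50 in naive conjunctiva and 5.51, 5.68 and 5.42 in DED. The highest and the lowest of the 6 values were both DED arrays. The difference was 0.04 with a 95% interval of -0.15 to 0.24 (limma, adjusted p = 0.809).

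Of the granule genes, PGLYRP1 alone passed the test. It encodes a peptidoglycan-binding bactericidal protein of neutrophil granules. Its probe set was matched by symbol only, since the Entrez identifier in the platform annotation is not the one RefSeq gives for PGLYRP1. Array values were 6.57, 6.61 and 6.65 in naive conjunctiva and 7.03, 6.98 and 6.96 in DED. The groups did not overlap, with a gap of 0.31. The difference was 0.38 (standard error 0.056, 95% interval 0.24 to 0.52), or 1.30-fold, from 6.61 ± 0.040 to 6.99 ± 0.036 (SD, n = 3 arrays each; limma, adjusted p = 0.0115). The call was lost without naive replicate 2 (0.38, adjusted p = 0.0504) and without DED replicate 1 (0.36, adjusted p = 0.0537).

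MPO, the myeloperoxidase of azurophil granules, had array values of 5.52, 5.49 and 5.56 in naive conjunctiva and 5.49, 5.63 and 5.44 in DED. The DED arrays enclosed the whole naive range. The difference was 0.00 with a 95% interval of -0.17 to 0.16 (limma, adjusted p = 0.984). Its mean over all arrays was 5.52, at percentile 37.2 of all probe sets, and there is no detection call. The paper also assayed MPO by RT-PCR and shows it among the innate immunity genes selected for its figure. Those values were not used here, so the 2 methods were not compared for MPO. MPO and LPO are neighbouring paralogs in the RefSeq annotation of assembly mOryCun1.1, and for both DED array 2 gave the highest and DED array 3 the lowest of the 6 values. Whether their probe sets share signal was not tested.

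BPI, the bactericidal/permeability-increasing protein that binds lipopolysaccharide, read 5.12, 5.10 and 5.22 in naive conjunctiva and 5.33, 5.24 and 5.16 in DED. Here the lowest DED array fell inside the naive range. The difference was 0.10 (95% interval -0.07 to 0.26; limma, adjusted p = 0.482). CAMP, whose product cathelicidin is known in the rabbit as CAP18, read 4.97, 4.67 and 4.99 in naive conjunctiva and 4.99, 5.14 and 4.95 in DED. Naive array 2 was the low value, and the other 5 arrays lay between 4.95 and 5.14. The difference was 0.15 (95% interval -0.10 to 0.40; limma, adjusted p = 0.469). CAMP was the only gene of the 8 whose mean fell among the 30% dimmest probe sets.

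PGLYRP2, an enzyme that cleaves peptidoglycan and is best known as a serum protein made by the liver, had the lowest estimate of the set. Array values were 6.02, 5.61 and 5.45 in naive conjunctiva and 5.10, 5.47 and 5.38 in DED. Naive array 1 was the highest by 0.41, and DED array 2 lay just above the lowest naive array. The difference was -0.38 (standard error 0.17, 95% interval -0.78 to 0.02), and it did not pass the test (limma, adjusted p = 0.252). Its naive SD of 0.29 was the largest of the 8 in that group. Of 6 hepatocyte markers measured, 1 was higher (FGB, a fibrinogen chain, 0.76, limma adjusted p = 0.0135, and 0.0539 without naive replicate 2 or 0.0520 without DED replicate 3), and their median difference was -0.05.

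**Figure D2:**
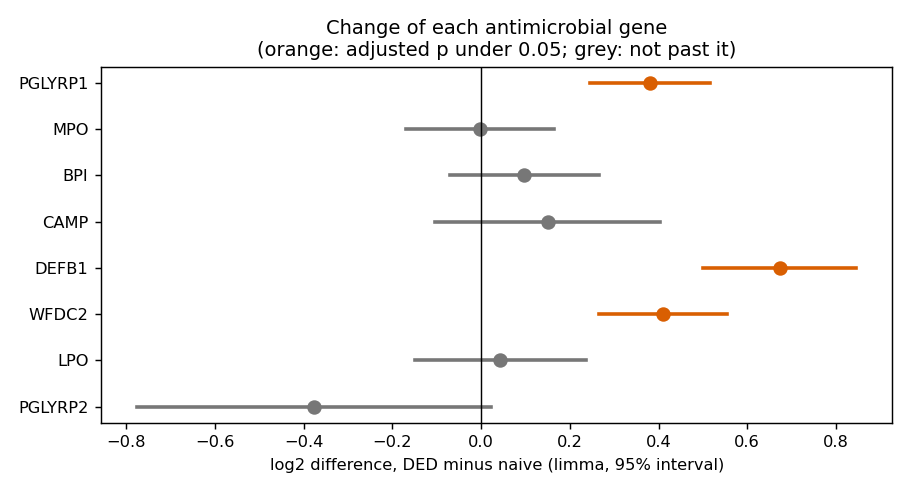
Log2 difference, DED minus naive, of the 8 genes (x axis) with its 95% interval from limma. Orange marks the genes past the threshold: DEFB1 at 0.67, WFDC2 at 0.41 and PGLYRP1 at 0.38. The intervals of the other 5 genes include 0.

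Other granule and neutrophil genes set the 4 granule genes in context. Of 14 further granule genes measured (of 24 listed), 4 were higher, 3 lower and 7 neither, with a median difference of 0.09, against -0.01 over all probe sets. CHI3L1, a chitinase-like protein of specific granules that macrophages also make, rose from 6.25, 6.38 and 6.06 to 8.35, 8.08 and 8.18 (1.97, limma adjusted p = 3.44e-04). LTF (lactoferrin) and TCN1 (a vitamin B12 binding protein) fell by 1.54 (limma, adjusted p = 6.52e-04) and 1.30 (limma, adjusted p = 0.00311). Both of these are also made by exocrine glands. The granule list shares LTF, LCN2 and LYZ with the list of tear and epithelial antimicrobial proteins.

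Markers of the neutrophil itself were counted beside them. Of 14 measured (of 21 listed), 9 were higher, 0 lower and 5 neither, and their median difference was 0.82. With an array left out 7 or 8 were higher, and in a one-way analysis of variance 6. The 5 without a call were NCF4, FPR1, PTAFR, FGR and PADI4, with differences from 0.26 (NCF4) down to -0.14 (PADI4). The mean of the list was 6.29 to 6.38 on the naive and 7.03 to 7.08 on the DED arrays. S100A8, a subunit of calprotectin, was 6.62, 6.54 and 6.84 in naive conjunctiva and 8.54, 8.59 and 8.53 in DED. CXCR1 and CXCR2, the receptors that draw neutrophils towards interleukin 8, differed by 1.37 (limma, adjusted p = 2.84e-04) and 1.20 (limma, adjusted p = 0.00693). S100A8 and several others on the list are also expressed by monocytes, and S100A8 by epithelium. Macrophage markers moved as well, with 5 of 7 higher, 0 lower and a list mean of 7.73 to 7.78 against 8.21 to 8.24; the 3 largest were CD68 (0.91), AIF1 (0.75) and C1QC (0.64), and the count of macrophage markers fell to 3 without naive replicate 2, naive replicate 3, DED replicate 1 or DED replicate 3. The part of these cells, or of epithelium, in the PGLYRP1 difference was not tested.

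Regulators of the granulocyte precursor, the stage at which most granule genes are transcribed, showed no call. None of the 5 measured passed the test by limma (0 also at an unadjusted p under 0.05), and the largest estimate was CEBPB at 0.19 (adjusted p = 0.327). Of the eosinophil granule genes only EPX, another peroxidase of the MPO and LPO cluster, and IL5RA were measured, and neither passed (EPX -0.11, limma adjusted p = 0.665).

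**Figure D3:**
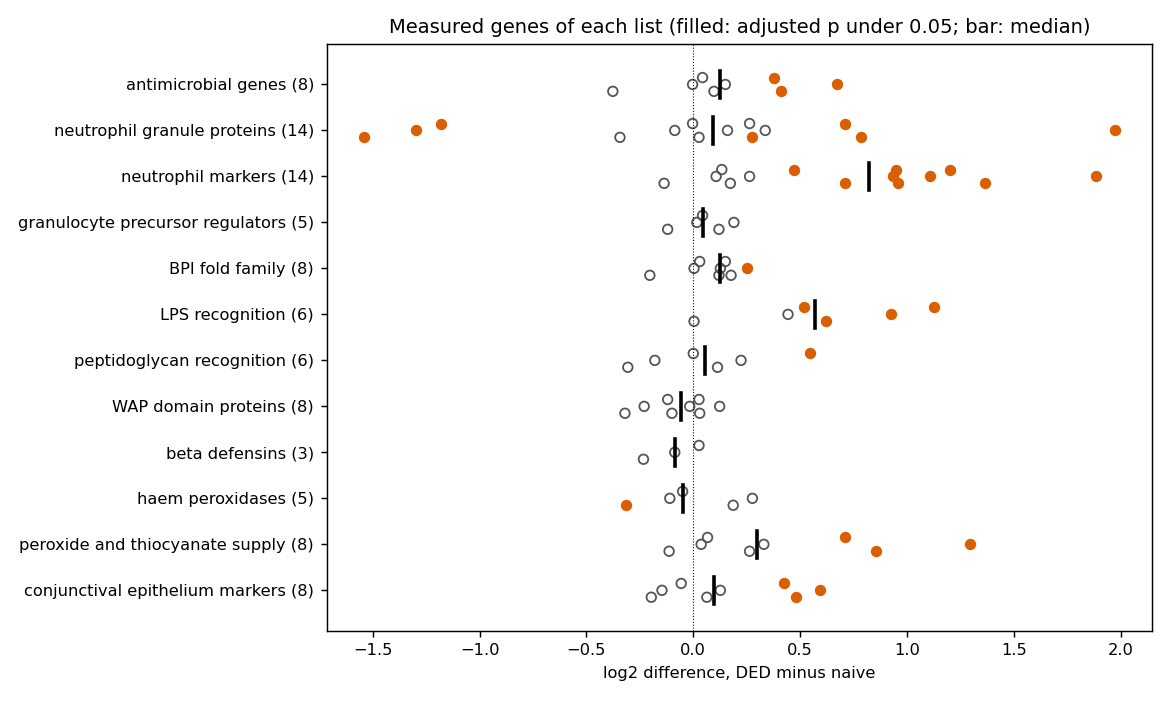
Log2 difference, DED minus naive, of each measured gene in the set and in the related gene lists (x axis), 1 row per list. Each point is a gene, filled where it passed the threshold, and the bar is the median of the list. The neutrophil markers are shifted to the right with a median of 0.82, while the granule proteins spread to both sides.

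Relatives of the 8 genes were counted family by family. Among 8 BPI-fold proteins other than BPI, 1 was higher: PLTP, a phospholipid transfer protein, at 0.25 (limma, adjusted p = 0.0388), which did not pass in any fit with an array removed (adjusted p 0.0921 to 0.118). LBP, which presents lipopolysaccharide to CD14 and lies next to BPI in the genome, was at 0.00 (limma, adjusted p = 0.985). None of 8 WAP domain proteins other than WFDC2 passed the test by limma (1 at an unadjusted p under 0.05, WFDC10A at -0.32, adjusted p = 0.151). Beta-defensins other than DEFB1 were represented by 3 of 35 listed genes, DEFB125, DEFB127 and DEFB129. None passed the test by limma (0 at an unadjusted p under 0.05, DEFB127 at -0.23, adjusted p = 0.346). Their means over all arrays were only 3.49, 3.75 and 4.29, at percentiles 13.5, 15.9 and 21.0 of all probe sets. There is no detection call, so whether these 3 genes were expressed at all was not tested.

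Among 5 haem peroxidases other than MPO and LPO, 0 were higher and 1 was lower, PTGS1 (cyclooxygenase 1) at -0.32 (limma, adjusted p = 0.0270), which did not pass in any fit with an array removed (adjusted p 0.0541 to 0.0933). Genes that supply peroxidases with hydrogen peroxide and thiocyanate were counted next. Of 8 measured, 3 were higher, 0 lower and 5 neither, with a median of 0.30. NOX1, an NADPH oxidase, was 5.72, 5.58 and 5.74 in naive conjunctiva and 7.07, 6.92 and 6.94 in DED (1.30, limma adjusted p = 3.98e-04). DUOXA2, the maturation factor of the oxidase DUOX2, was 8.97, 8.98 and 8.98 and then 9.85, 9.83 and 9.81 (0.85, limma adjusted p = 4.37e-04). SLC26A4, the anion exchanger pendrin, differed by 0.71 (limma, adjusted p = 0.00345), and DUOX2 by 0.33 without passing (limma, adjusted p = 0.104).

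Genes of lipopolysaccharide and peptidoglycan recognition were counted beside BPI and the PGLYRP proteins. For lipopolysaccharide, 4 of 6 genes were higher and 0 lower, with a median of 0.57 (2 higher without DED replicate 1 or DED replicate 2). CD14, the surface co-receptor, was 8.17, 8.11 and 8.08 in naive conjunctiva and 9.27, 9.20 and 9.27 in DED (1.13, limma adjusted p = 2.84e-04). LY96, the partner of TLR4 also called MD-2, differed by 0.92 (limma, adjusted p = 4.28e-04). LY86 (MD-1) differed by 0.62 (limma, adjusted p = 0.0162), with adjusted p up to 0.0686 when arrays were left out (lost without naive replicate 3, DED replicate 1 or DED replicate 2). TLR4 itself, at 0.44, narrowly missed the threshold (limma, adjusted p = 0.0512) and passed it in 7 of 16 other settings, among them without naive replicate 3 (adjusted p = 0.0400). The peptidoglycan list held NOD1, NOD2, RIPK2, TLR1, TLR2 and TLR6, not all of them direct sensors of it. Of these 6 genes 1 was higher, TLR1 at 0.55 (limma, adjusted p = 0.0460), and the median of the list was 0.06. Every DED array lay above every naive array in 2 (TLR1 and NOD2, against 13.4% of all probe sets). Every DED array lay below in 2 (TLR6 at -0.31 and RIPK2 at -0.18, against 14.5%), and neither passed (limma, adjusted p = 0.120 and 0.189). With each array left out in turn, TLR1 passed only without naive replicate 3, and its adjusted p otherwise reached 0.137.

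Genes listed as receptors and regulators of cathelicidin, by roles known mainly from humans, were counted beside CAMP. Whether they act on CAMP in the rabbit was not tested. Of 7 measured, 2 were higher and 0 lower, with a median of 0.04. FPR2, a formyl peptide receptor that the cathelicidin peptide LL-37 activates in humans, differed by 0.95 (limma, adjusted p = 0.0177), and the call was lost without naive replicate 3 or any DED replicate (adjusted p up to 0.0727). CYP24A1, which degrades active vitamin D, differed by 0.83 (limma, adjusted p = 0.00808). VDR, the vitamin D receptor that drives CAMP in humans, was at 0.04 (limma, adjusted p = 0.884).

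Markers of conjunctival epithelium and goblet cells were set beside DEFB1 and WFDC2, whose source cells in this tissue were not located. Of 8 conjunctival epithelium markers measured (of 13 listed), 3 were higher and 0 lower, with a median difference of 0.10 and a list mean of 10.41 to 10.45 against 10.57 to 10.61. KRT5, a keratin of basal cells, differed by 0.59 (limma, adjusted p = 0.00496), MUC4, a membrane mucin, by 0.48 (limma, adjusted p = 0.00409) and KRT4, a keratin of non-keratinized epithelium, by 0.43 (limma, adjusted p = 0.0145, and 0.0591, 0.0620, 0.0581 and 0.0576 without naive replicate 1, naive replicate 2, DED replicate 1 and DED replicate 2). The transcription factors PAX6, EHF and ELF3 lay the other way, with every DED array below every naive array (14.5% of all probe sets). Their differences were -0.15 (limma, adjusted p = 0.188), -0.20 (limma, adjusted p = 0.0869) and -0.06 (limma, adjusted p = 0.590). TP63, also a transcription factor of the list, was at 0.06 with overlapping groups (limma, adjusted p = 0.588). In 4 of the 8 markers, KRT4, KRT5, MUC4 and KRT19, every DED array lay above every naive array (13.4% of all probe sets). With an intensity trend PAX6 and EHF were called lower (adjusted p = 0.0123 and 0.00134). KRT13, KRT14, KRT15, MUC1 and MUC16 had no probe set with that single symbol, and the paper lists MUC16 as lower in DED. Of 6 goblet cell markers, FCGBP was higher (0.68, limma adjusted p = 0.00188) and the goblet mucin MUC5AC was lower (-0.24, limma adjusted p = 0.0477, with 0.0941 to 0.141 when each array was removed in turn). In 3 of the 6 every DED array lay below every naive array: MUC5AC, SPDEF (-0.45, limma adjusted p = 0.0778) and AGR2 (-0.13, limma adjusted p = 0.299). In 1, FCGBP, every DED array lay above (13.4% of all probe sets). The part of epithelial cells in the DEFB1 and WFDC2 differences was not tested.

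Exocrine gland markers were mostly lower. Of 8 measured (of 13 listed), 5 were lower and 2 higher (1 higher with any array removed), with a median difference of -0.82 and a list mean of 9.81 to 9.85 against 8.68 to 8.78. PIP, the prolactin-induced protein of lacrimal and salivary glands, fell from 11.08, 11.08 and 11.12 to 6.28, 6.47 and 6.63 (-4.63, limma adjusted p = 1.20e-05), and ELAPOR1, a protein of secretory cells, fell by 1.70 (limma, adjusted p = 2.84e-04). The 2 higher genes were PIGR, the receptor that carries IgA across epithelia, and DMBT1, a mucin-like scavenger protein, both of which surface epithelium also makes, and SLC12A2, a chloride cotransporter, was at 0.00 (limma, adjusted p = 0.984). LPO and WFDC2, which glands also secrete, were at 0.04 and 0.41 in the same arrays.

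Other antimicrobial proteins of tears and epithelia divided. Of 11 measured, 3 were higher (1 with any array removed), 3 lower and 5 neither, with a median of -0.11. LTF was 7.90, 7.85 and 8.09 in naive conjunctiva and 6.43, 6.55 and 6.24 in DED. LCN2, the iron-scavenging lipocalin that neutrophils and epithelia share, was 7.51, 7.66 and 7.75 and then 6.62, 6.13 and 6.63 (-1.18, limma adjusted p = 0.00646). RNASE4, a secreted ribonuclease, differed by -0.42 (limma, adjusted p = 0.0124, and 0.0525 without DED replicate 2 or 0.0520 without DED replicate 3). DMBT1 was 10.70, 10.74 and 10.77 in naive conjunctiva and 11.11, 11.10 and 11.12 in DED (0.37, limma adjusted p = 0.0102). PIGR differed by 0.33 (limma, adjusted p = 0.0159) and LYZ, lysozyme, by 0.27 (limma, adjusted p = 0.0390), and neither passed in any fit with an array removed (adjusted p 0.0537 to 0.0631 and 0.0775 to 0.125). LYZ had 2 probe sets, and the one with the higher mean over all arrays was used. The paper lists a lysozyme C entry as lower in DED. The list therefore held genes that were higher, as DEFB1 and WFDC2 were, and genes that were lower.

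**Figure D4:**
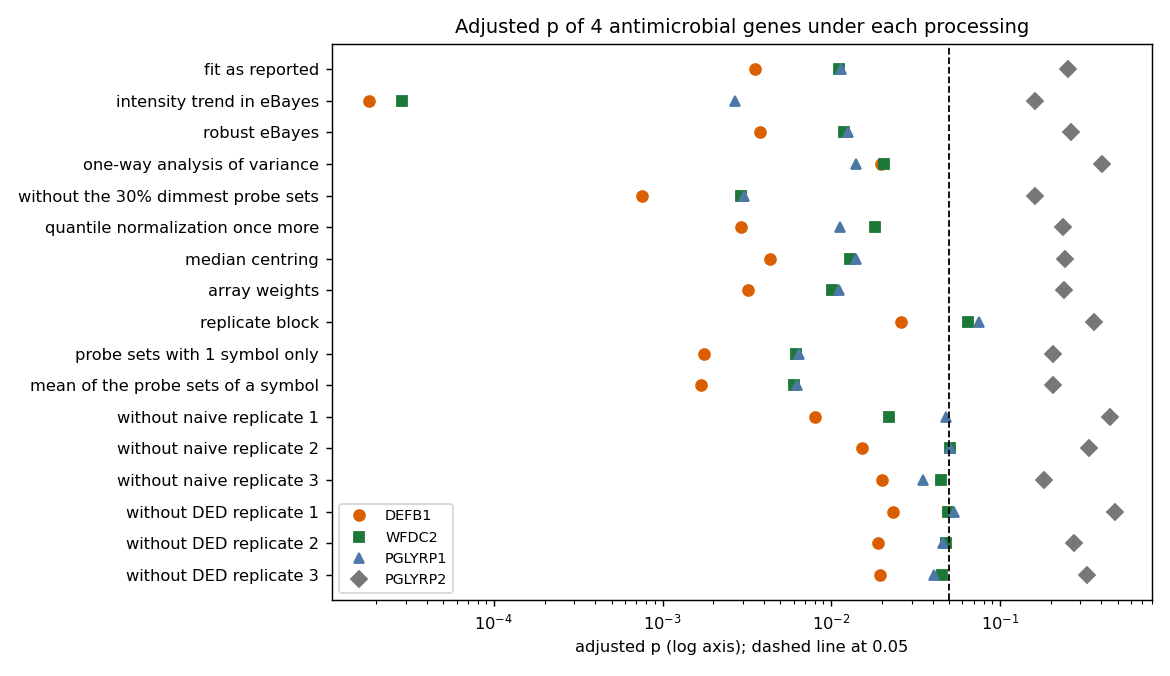
Adjusted p (x axis, log scale) of DEFB1, WFDC2, PGLYRP1 and PGLYRP2 under the fit as reported and 16 other settings (rows); the dashed line marks 0.05. DEFB1 stays left of the line in every row, WFDC2 in 14 and PGLYRP1 in 13 of the 16 other settings, and PGLYRP2 in none.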

How the data were processed

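RNA of pooled full-thickness conjunctiva was hybridised to rabbit gene arrays, 3 per group. Deposited log2 values are those of the authors, computed in the Transcriptome Analysis Console by Robust Multi-chip Analysis; its version and the genome build are not given in the sources used here. The method corrects background, normalizes by quantiles and summarises probes, so a shift of all transcripts together cannot be seen. From these values, given to 2 decimals, DED was compared with naive in limma 3.58.1 (lmFit, then eBayes; R 4.3.3), which was tested on simulated data. Symbols came from the platform annotation: 15795 of 23364 probe sets had 1 symbol, 397 several and 7172 none listed. All 8 genes were found by symbol in RefSeq, and all but PGLYRP1 (7) by Entrez identifier. Every measured gene of the set is named. From each other list, up to 3 genes past the threshold with the largest differences are named, or the largest where none passed. Other genes named stand as members of a small count, family, pathway or neighbourhood. PAX6, EHF, ELF3, TP63, KRT19, SLC12A2, SPDEF, AGR2, NOD2, TLR6, RIPK2, NCF4, FPR1, PTAFR, FGR and PADI4 were added after their values were seen. The genes of the set and the lists were chosen with earlier results of these data known. Alternatives were an intensity trend, robust eBayes, one-way analysis of variance, no dim probe sets, further quantile normalization, median centring, array weights, a replicate block, single-symbol probe sets, averaged probe sets and leaving out each array. Python 3.11.15, pandas 2.3.3, numpy 2.4.6, scipy 1.17.1 and matplotlib 3.10.9 were used for the rest.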

Additional observations from a re-analysis of the deposited data

How the results depend on the processing

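Over 16 alternatives, DEFB1 passed the threshold in 16, WFDC2 in 14 and PGLYRP1 in 13, and CAMP, BPI, MPO, PGLYRP2 and LPO in none. Leaving out 1 array gave 1 to 3 of the 8 genes higher (1 without naive replicate 2) and 0 lower, 558 to 684 probe sets higher and 264 to 344 lower, and 24 to 29 genes of the other lists higher and 6 to 8 lower, against 35 and 10 with all arrays. An intensity trend gave 1697 probe sets higher and 1332 lower, and leaving out the 30% dimmest gave 1092 lower. Samples of the same replicate number did not deviate together (correlations of -0.02, 0.02 and -0.06), so the numbers were not taken to pair pools. With the replicate block, 490 probe sets were higher and 199 lower, 1 of the 8 genes was higher (DEFB1; WFDC2 had an adjusted p of 0.0649 and PGLYRP1 of 0.0750), and 23 listed genes were higher and 6 lower. Some differences, not all of them near 0, changed sign when an array was left out. MPO ran from -0.058 to 0.037, LPO from -0.028 to 0.10, EPX from -0.23 to 0.00333 and SLC12A2 from -0.037 to 0.043. LBP ran from -0.037 to 0.078 (-0.00354 with array weights), VDR from -0.078 to 0.12, DEFB125 from -0.032 to 0.10 and DEFB129 from -0.155 to 0.025. LOC100009134 ran from -0.00833 to 0.075 and LOC100009135 from -0.073 to 0.10. LOC100009136, at -0.34 with all arrays, ran from -0.59 to 0.083. CXCR2 missed the threshold in the one-way analysis of variance (0.0503). CAMP was left out with the dimmest probe sets and has 15 settings. The 3 arrays per group and the lack of a detection call limit what can be said of the dim genes CAMP, BPI, PGLYRP2, LPO and MPO.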

Other observations

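Rabbit neutrophils are rich in alpha-defensins, which are small cationic granule peptides, and some of their genes lie on the chromosome of DEFB1 in the RefSeq annotation of assembly mOryCun1.1. These genes were picked by hand after a first fit. LOC100009136 (RefSeq synonym NP-5) read 3.87, 3.25 and 3.43 in naive conjunctiva and 3.52, 2.33 and 3.68 in DED, with DED array 2 far below the rest (-0.34, limma adjusted p = 0.653). MCP2, here the rabbit macrophage cationic peptide and not the chemokine, read 7.42, 7.48 and 7.17 and then 7.16, 7.26 and 7.31, with overlapping groups (-0.11, limma adjusted p = 0.557). LOC100009134 and LOC100009135, taken in the same step and with no role annotated, were at 0.04 (limma, adjusted p = 0.817) and 0.01 (limma, adjusted p = 0.970). The alpha-defensin genes resemble each other closely, so probes can be shared between them and these values are uncertain.

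Neighbouring genes in the same annotation were read for each of the 8 genes, 3 protein-coding genes to each side. Of 42 neighbours, 30 had a value, 0 were higher in DED and 3 were lower, beside 4.41% and 2.69% of all probe sets. The 3 were SPINK8 near CAMP (-0.94, limma adjusted p = 0.00298), TGM2 near BPI (-0.39, limma adjusted p = 0.00943) and DBNDD2 near WFDC2 (-0.48, limma adjusted p = 0.0478). The call of DBNDD2 was lost in every fit with an array removed other than that without DED replicate 3 (adjusted p up to 0.143).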
